A study of Mus musculus with 4 samples.

Results

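Messenger RNA of 5 insulin and insulin-like growth factor (IGF) signalling genes was followed in the gastrocnemius of mice, the fast calf muscle. The genes were Igf1, Igf2, Igfbp4, Irs1 and Pik3r1. They were chosen by name, and every probe set whose annotation gave 1 of them as its only symbol was taken, which gave 9 of the 10833 probe sets that carried a single gene symbol. Igfbp5 was a sixth gene on the list, but its only probe set also carried the symbol Tmem119 and was left out. Of the 9 probe sets, 7 read at or above a floor of 100 signal units on all 4 arrays, and 2 stayed below it on every array.

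The data came from 4 Affymetrix MG-U74Av2 arrays, each of which carried RNA pooled from the gastrocnemius of 10 mice. The groups were intact mice, mice adrenalectomized 1 week earlier, adrenalectomized mice given 0.1 mg of cortisol into the peritoneum 3 h before dissection, and adrenalectomized mice given the same dose 24 h before. Corticosterone, which the adrenal makes, is the glucocorticoid of mice, and injected cortisol binds its receptor. The interval since surgery was given for the uninjected adrenalectomized group alone, and the labels gave no vehicle control and no strain, sex or age. Each group had 1 array, so the differences had no replicate check, no test across samples was possible, and the number of arrays limited the precision. The arrays ran in fluidics modules 1, 2, 3 and 4, so a module and a group cannot be told apart. Both cortisol groups were set against the same adrenalectomized array. Markers of skeletal muscle fibres were present at the floor or above for 16 of 17 genes on every array, with Myh2 below it throughout. Slow fibre markers had a summed signal of 75145 in intact, 82543.5 in adrenalectomized, 30166 in 3 h and 28620.1 in 24 h muscle, and epidermis and hair markers one of 3831, 4049, 17270.5 and 6729. In bulk muscle, fewer cells of a type and less RNA per cell cannot be told apart.

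IGF1 and IGF2 are secreted growth factors that act through the IGF1 receptor, and muscle makes its own IGF1 as a signal for fibre growth. IGF binding proteins such as IGFBP4 hold the ligands in the extracellular space and limit their access to the receptor. Inside the cell, insulin and IGF1 receptors phosphorylate the adaptor IRS1, which recruits the regulatory subunit p85α, the product of Pik3r1, and its catalytic partner to make the lipid messenger that activates AKT. Glucocorticoids are known to oppose this pathway in muscle, where they restrain protein synthesis and glucose uptake.

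Promoter sequences are shown for the 3 members with the largest differences by their brightest set 3 h after cortisol (Irs1, Pik3r1 and Igf1), and for Igfbp4, whose probe sets parted. They are from RefSeq (GRCm38.p6) and run from 250 bases before to 50 after an annotated start, and all 6 listed genes had an entry. Capitals mark matches, on either strand, to 6 patterns. These were the glucocorticoid response element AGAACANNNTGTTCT, its loose form GNACANNNTGTNC, which contains the strict one, the FOXO site TGTTTAC, the E-box CACGTG, the TATA box TATAAA and the GC box GGGCGG.
Irs1, chr1:82291390-82291689, minus strand: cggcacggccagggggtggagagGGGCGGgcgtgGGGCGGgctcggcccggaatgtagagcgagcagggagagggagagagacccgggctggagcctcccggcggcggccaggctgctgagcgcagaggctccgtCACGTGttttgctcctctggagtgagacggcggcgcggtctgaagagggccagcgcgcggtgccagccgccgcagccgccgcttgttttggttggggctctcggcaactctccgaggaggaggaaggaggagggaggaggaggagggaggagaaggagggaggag
Pik3r1, first start, chr13:101768168-101768467, minus strand: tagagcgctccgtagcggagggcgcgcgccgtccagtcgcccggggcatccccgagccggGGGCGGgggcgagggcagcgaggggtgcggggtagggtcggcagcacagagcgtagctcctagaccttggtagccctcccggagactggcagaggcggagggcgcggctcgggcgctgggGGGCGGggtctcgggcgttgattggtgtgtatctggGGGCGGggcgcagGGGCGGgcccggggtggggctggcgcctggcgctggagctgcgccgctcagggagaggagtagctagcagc
Igf1, chr10:87860861-87861160, plus strand: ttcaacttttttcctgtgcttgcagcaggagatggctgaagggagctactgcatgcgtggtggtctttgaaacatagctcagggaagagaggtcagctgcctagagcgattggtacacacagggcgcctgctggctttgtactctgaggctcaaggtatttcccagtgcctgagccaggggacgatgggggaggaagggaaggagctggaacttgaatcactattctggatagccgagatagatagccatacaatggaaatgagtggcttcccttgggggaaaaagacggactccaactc
Igfbp4, chr11:99040994-99041293, plus strand: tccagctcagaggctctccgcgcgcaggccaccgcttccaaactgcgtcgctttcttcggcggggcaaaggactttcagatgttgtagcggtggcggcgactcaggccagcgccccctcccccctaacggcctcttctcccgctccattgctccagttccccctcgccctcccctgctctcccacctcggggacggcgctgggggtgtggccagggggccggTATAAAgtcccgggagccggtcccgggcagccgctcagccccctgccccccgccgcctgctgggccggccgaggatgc

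G and C made up 71.3% of the windows of Irs1 and Igfbp4, 75.7% of that of Pik3r1 and 52.3% of that of Igf1. A second annotated start of Pik3r1, not printed, had a window with 43.7% G and C, no GC box and a TATA box at position -117. Irs1 held 1 E-box, which began at position -115 from the start, and 2 GC boxes, and Pik3r1 held 4 GC boxes. Igfbp4 held a TATA box at position -28, and the Igf1 window held none of the 6 patterns. Neither form of the glucocorticoid response element lay in any of the 4 windows. Among all 32851 promoters of this length the strict form was found in 3 and the loose form in 0.475%, the FOXO site in 3.65%, the E-box in 7.15%, the TATA box in 13.6% and the GC box in 35.7%. A match is a run of letters and not a measured binding site.

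**Figure D1:**
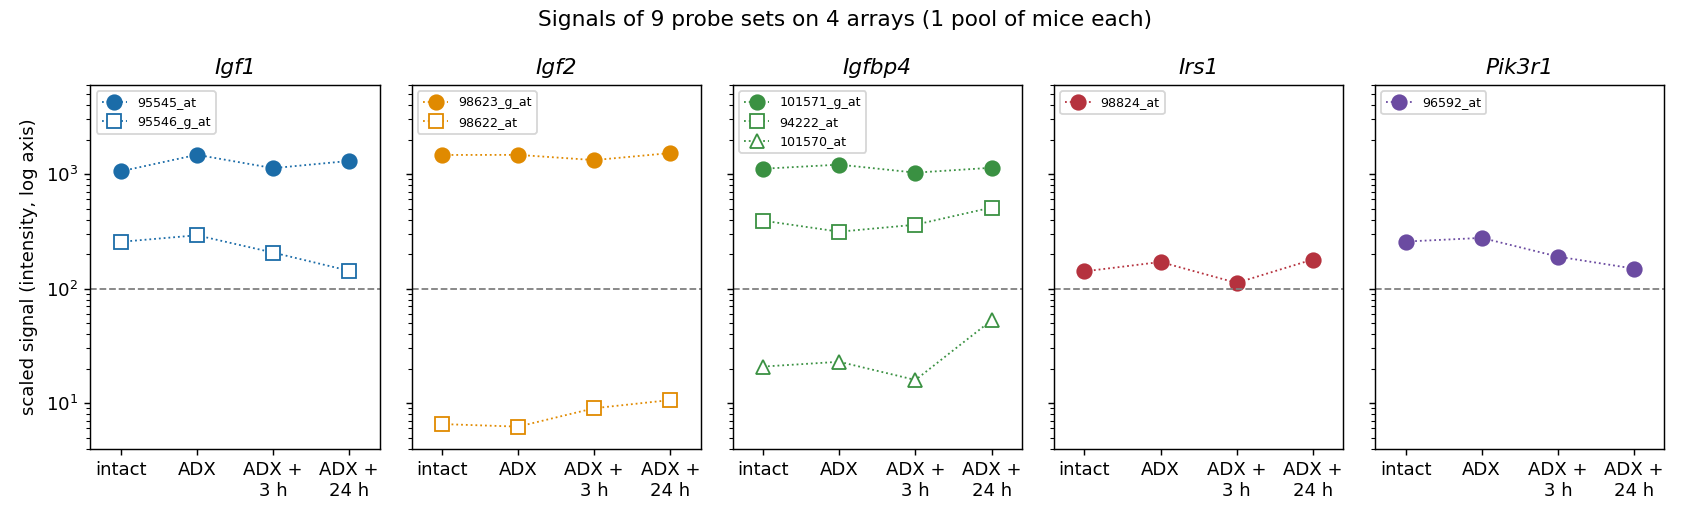
Scaled signals of the 9 member probe sets (intensity, log axis) in intact, adrenalectomized (ADX) and cortisol-injected muscle, 1 array per point. Filled symbols are the brightest set of each gene, dotted lines only join the points of a set, and the dashed line is the floor of 100. One set each of Igf2 and Igfbp4 lay below the floor on all 4 arrays, and Pik3r1 and the dimmer Igf1 set were lowest at 24 h.

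Igf1 was read by 2 probe sets made from the same sequence record. The brighter set, 95545_at, read 1057 in intact, 1473 in adrenalectomized, 1125 in 3 h and 1301 in 24 h muscle. Its order was therefore adrenalectomized, 24 h, 3 h and intact from high to low, and no neighbours in that order differed by more than 0.21 on the log2 scale. The dimmer set, 95546_g_at, read 256, 292, 206 and 143 in the same order of groups. Its suffix marks probes shared with another set or transcript, so that its signal may hold more than Igf1. Both sets were highest in adrenalectomized muscle, but the brighter set was lowest in intact muscle and the dimmer one at 24 h.

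Igf2, which encodes the second ligand and is known mainly as a growth factor of the fetus and of regenerating muscle, varied least. Its set 98623_g_at read 1467 in intact, 1470.15 in adrenalectomized, 1323 in 3 h and 1525 in 24 h muscle, a highest over lowest ratio of 1.15. The other set, 98622_at, read between 6.22 and 10.6 and gave no measurement. The 2 sets stem from the same sequence record. The measured one carries a suffix for probes shared with another set or transcript, so its signal may hold more than Igf2.

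Igfbp4 encodes a binding protein that generally restrains IGF action. Its brightest set, 101571_g_at, read 1112 in intact, 1208 in adrenalectomized, 1028 in 3 h and 1135 in 24 h muscle. The set 94222_at, made from another clone, read 391, 314, 361 and 509.96. The first was lowest at 3 h and the other lowest after adrenalectomy and highest at 24 h, so the sets ordered the arrays differently. The remaining set, 101570_at, read between 15.9 and 52.9, below the floor throughout. It stems from the same sequence record as 101571_g_at. The brightest set carries the shared-probe suffix, so its signal may hold more than Igfbp4, while 94222_at carries none.

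Irs1 encodes the adaptor that insulin and IGF1 receptors phosphorylate first. Its set 98824_at read 141 in intact, 171 in adrenalectomized, 112 in 3 h and 179 in 24 h muscle. The 3 h array was the lowest and lay just above the floor, while the 24 h and adrenalectomized arrays differed by 0.07 on the log2 scale. Pik3r1 encodes the p85α subunit that links IRS1 to lipid kinase activity. Its set 96592_at read 257 in intact, 277 in adrenalectomized, 190.05 in 3 h and 149 in 24 h muscle. Both arrays without injected cortisol were above both arrays with it. The summed slow fibre markers parted the arrays in the same way, and the part of tissue makeup in the Pik3r1 signal was not tested.

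Against intact muscle, adrenalectomized muscle had higher signals for all 5 genes by their brightest sets, where 52.0% of all genes were above 0, and each difference was under 1.5-fold. Igf1 was 1.39-fold higher by its brighter set (log2 ratio 0.48) and 1.14-fold higher by the dimmer one (0.19). Irs1 was 1.21-fold higher, Igfbp4 1.09-fold, and Pik3r1 1.08-fold. Igf2 had a log2 ratio of 0.0027, which changed sign when the arrays were scaled to the median. The second Igfbp4 set was 1.25-fold lower. None of the 5 genes reached 1.5-fold, where 4.91% of the 6112 genes measured did so in either direction, and 0 of the 7 probe sets did, beside 5.09% of all sets. At 2-fold the count was 0 of 5 beside 0.72%. The median of the members was 0.12 and that of all genes 0.01.

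The only error measure in these data came from genes read by 2 probe sets, both at or above the floor. The SD of a log2 ratio estimated from their disagreement was 0.24 for adrenalectomized against intact over 928 genes, 0.28 for 3 h against adrenalectomized over 928 and 0.32 for 24 h against adrenalectomized over 926. Among pairs with mean signals under 300, where Irs1, Pik3r1 and the dimmer Igf1 set lie, it was 0.30, 0.37 and 0.39 over 95, 101 and 99 genes. This error leaves out variation between mice, pools and dissections. By this measure no neighbours in the order of the arrays differed beyond the SD of their comparison for Igf1 95545_at, Igf2 and Igfbp4 101571_g_at. The arrays of the dimmer sets stood farther apart. The log2 ratio of 3 h against intact was -0.44 for Pik3r1 and -0.33 for Irs1, each beyond the SD of 0.31 among dim pairs, and that of 24 h against 3 h was -0.35 for Pik3r1, within the SD of 0.40. The higher Igf1 signal after adrenalectomy thus came to about the size of 2 such SDs by the brighter set and to less than 1 by the dimmer set. Fibroblast and matrix markers, which mark cells that also make IGF1, had a summed signal of 51366 in intact, 59397 in adrenalectomized, 50654 in 3 h and 43926 in 24 h muscle. With adrenalectomy their median log2 ratio was 0.22 over 14 of 15 genes on the array, with only Mmp2 below the floor on all arrays, and macrophage markers had one of 0.15 over 10 of 12. The part of these cells in the Igf1 signal was not tested.

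**Figure D2:**
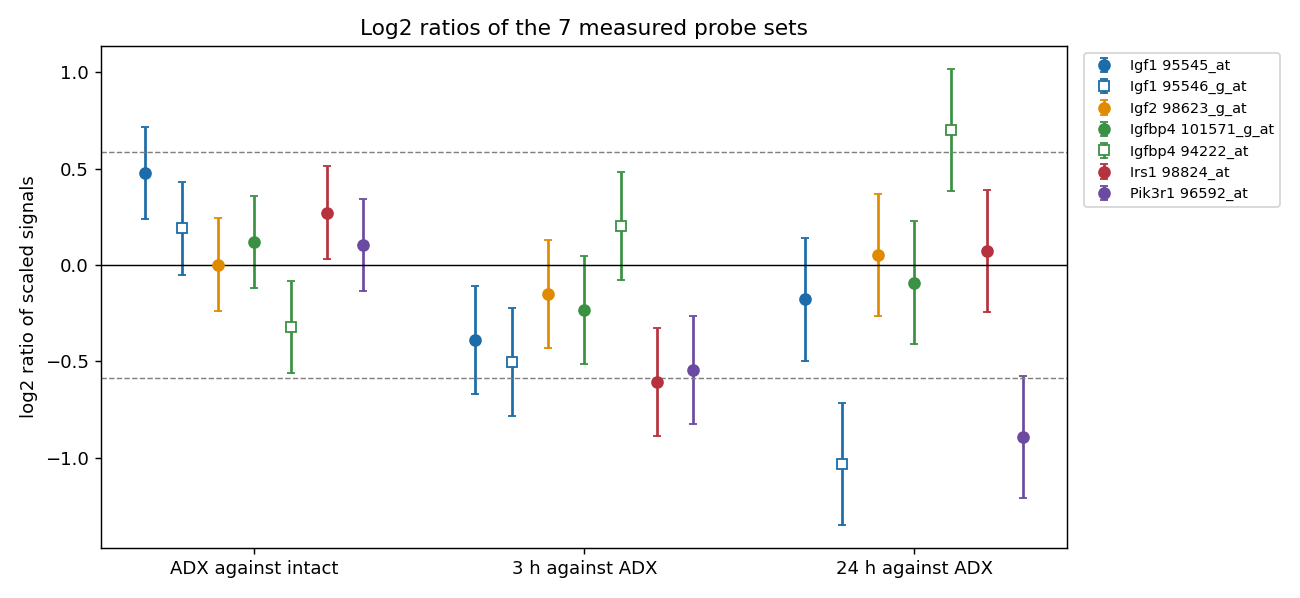
Log2 ratios of scaled signals for the 7 measured probe sets in the 3 main comparisons (ADX, adrenalectomized). Filled circles are the brightest set of each gene, bars are 1 SD estimated from genes with 2 probe sets and hold no biological variation, and dashed lines mark 1.5-fold. At 3 h 6 of the 7 sets lay below 0, and at 24 h the dimmer Igf1 set and Pik3r1 lay farthest below it.

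At 3 h after cortisol all 5 genes read lower than in adrenalectomized muscle by their brightest sets, while 53.2% of all genes were below 0. Irs1 was lowest, at 1.52-fold under the adrenalectomized signal (log2 ratio -0.61), and was the 1 member of 5 past 1.5-fold, beside 4.75% of the 6168 genes that were lower by that much and 9.82% that were different in either direction. No member reached 2-fold, beside 3.03% of genes. Of the 7 probe sets 1 was past 1.5-fold, beside 10.1% of all sets. Pik3r1 was 1.46-fold lower (-0.54). Igf1 was 1.31-fold lower by its brighter set and 1.42-fold by the dimmer one. Its sets thus had the same direction, as did 58.7% of the genes read by 2 sets at or above the floor. Both Igf1 sets were made from the same sequence record and are not independent readings. Igfbp4 was 1.18-fold and Igf2 1.11-fold lower, each within the SD of 0.28, and the second Igfbp4 set was 1.15-fold higher. The median of the members was -0.39 and that of all genes -0.02. The 5 lower genes here and the 5 higher genes after adrenalectomy share the adrenalectomized array with opposite sign. These 2 counts are therefore not separate evidence.

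The values at 3 h depended on brightness and scaling. Among the 2891 probe sets with a mean signal under 300, 7.99% were at least 1.5-fold lower at 3 h, and Irs1 is one of these dim sets. Scaling to ribosomal protein probe sets moved the median of all genes to -0.14 and put Pik3r1 and the dimmer Igf1 set past 1.5-fold, with log2 ratios of -0.67 and -0.63. Relative to that shift the ratios were close to those under the main scaling. With a floor of 200 Irs1 gave no ratio, since all its signals were below it. Irs1 fell short of 1.5-fold with median scaling (log2 ratio -0.58) and with a pseudocount of 32 in place of the floor (-0.49). On the 3 h array epidermis and hair markers were at least 1.5-fold higher for 15 of 18 measured genes of 22 on the array, with the basal keratins Krt5, Krt14 and Krt15 and Dsc1 below the floor on all 4 arrays. Slow fibre markers were at least 1.5-fold lower for 8 of 10. The part of this difference in tissue makeup in the member signals was not tested.

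At 24 h the members parted. Pik3r1 was 1.86-fold lower than in adrenalectomized muscle (log2 ratio -0.89) and was the 1 gene of 5 past 1.5-fold by its brightest set, beside 4.51% of the 6228 genes that were lower and 10% in either direction. No gene reached 2-fold by its brightest set, beside 2.33%. Irs1 was 1.05-fold higher, a difference within the SD of 0.39. Igf2 was 1.04-fold higher and Igfbp4 1.06-fold lower by its brightest set. The median of the members was -0.09 and that of all genes 0.01. On the 24 h array slow fibre markers were at least 1.5-fold lower for 8 of 10 genes and higher for 0. Epidermis and hair markers were higher by that much for 10 of 17 and lower for 0. Fibroblast and matrix markers were lower for 4 of 14 and higher for 0. The part of this difference in the member signals at 24 h was not tested.

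Igf1 and Igfbp4 at 24 h rested on the choice of probe set. Igf1 was 1.13-fold lower by its brighter set and 2.04-fold lower by the dimmer one, a gap of 0.85 in log2 ratio where the SD of such a gap over all gene pairs was 0.45. The mean of both sets was 1.52-fold lower, past the 1.5-fold line that the brighter set did not reach. Igfbp4 was 1.63-fold higher by 94222_at, and the gap between its sets was -0.79. Counted as probe sets, 1 of 7 was at least 1.5-fold higher and 2 were lower, beside 10.6% of all measured sets in either direction. Among sets with a mean signal under 300, 7.77% were at least 1.5-fold lower at 24 h. With a floor of 200 the 24 h signals of Pik3r1 and the dimmer Igf1 set lay below the floor. Their log2 ratios of -0.47 and -0.55 there are bounds and not smaller measured differences.

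**Figure D3:**
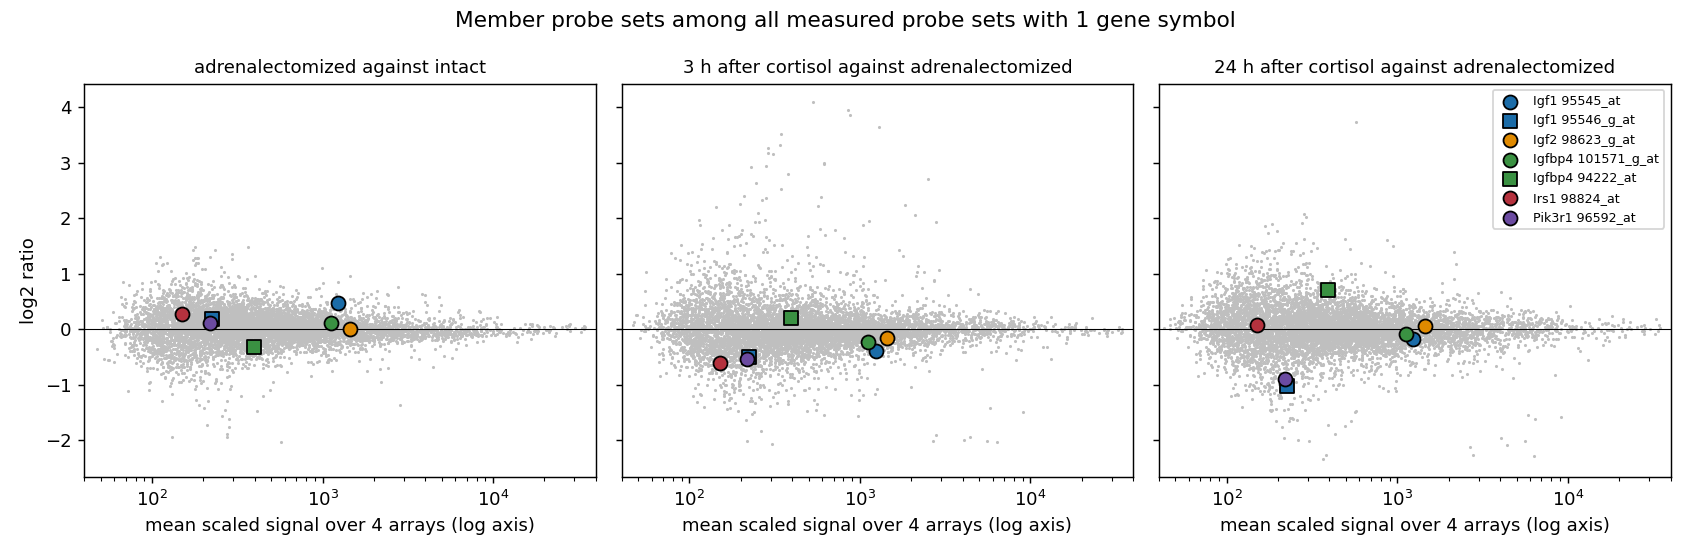
Log2 ratio against mean scaled signal over the 4 arrays (log axis) for all measured probe sets with 1 gene symbol (grey) and the 7 measured member sets (coloured, circles for the brightest set of a gene), in the 3 main comparisons. The grey cloud widens toward low signals, where Irs1, Pik3r1 and the dimmer Igf1 set lie, and the member sets lie inside or at the edge of the cloud.

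Between the cortisol arrays, Irs1 was 1.60-fold higher at 24 h than at 3 h, and was the 1 member of 5 past 1.5-fold, beside 11.6% of genes in either direction. Pik3r1 was 1.27-fold lower at 24 h than at 3 h, and the dimmer Igf1 set 1.44-fold lower. Set against intact muscle, the 24 h array was 1.72-fold lower for Pik3r1, the 1 gene of 5 past 1.5-fold beside 9.99% of genes, and 1.79-fold lower for the dimmer Igf1 set. At 3 h against intact 0 of the 5 genes reached 1.5-fold, beside 9.95%, and Pik3r1 was 1.35-fold and Irs1 1.26-fold lower. By their brightest sets 4 genes were lower than intact there, beside 52.1% of all genes, and Igf1 was 1.06-fold higher. The dimmer Igf1 set was 1.24-fold lower. These comparisons reuse the same 4 arrays and are not separate evidence.

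The genes whose pattern over the 4 arrays was most like a member's were found for Irs1 and Pik3r1, the members that ranged at least 1.5-fold by their brightest set. Likeness was the Euclidean distance between log2 signals centred on each gene's own mean, over 4 arrays and 5451 other genes at or above the floor on all of them. For Irs1 these were Prkcz at a distance of 0.01, Khdc1b at 0.06 and Arhgap5 at 0.08, and 154 genes lay within 0.25. For Pik3r1 they were Sars at 0.07, Proc at 0.07 and Cavin3 at 0.10, and 37 genes lay within 0.25. With only 4 arrays many genes share a pattern, and the Prkcz set carries a suffix for probes chosen under relaxed rules.

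The rest of the pathway was described by a list of 90 other insulin and IGF signalling genes, of which 64 had a probe set with a single symbol. Of the measured genes, 2 were at least 1.5-fold higher and 2 lower of 56 after adrenalectomy, 5 higher and 5 lower of 57 at 3 h, and 2 higher and 4 lower of 57 at 24 h against the adrenalectomized array. These are 7.14%, 17.5% and 10.5% of the list, beside 4.91%, 9.82% and 10% of all genes. The list medians were -0.04, -0.05 and -0.02, each within 0.1 of the all-gene median. Genes lay on both sides of 0, with 23 higher and 33 lower after adrenalectomy, 23 higher and 34 lower at 3 h and 28 higher and 29 lower at 24 h.

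The IGF1 receptor gene Igf1r read 656 in intact, 587 in adrenalectomized, 721 in 3 h and 784 in 24 h muscle, and Igf2r, which clears IGF2, read between 1148 and 1232. The single set of the insulin receptor gene Insr stayed below the floor on all arrays, with signals from 27.0 to 97.3. The growth hormone receptor gene Ghr read 1263, 1422.5, 1218 and 1227. Igfals, which encodes the acid-labile subunit that stabilizes circulating IGF1 and is made mainly by the liver, read 374, 273, 217 and 107, so that it was 2.56-fold lower at 24 h than after adrenalectomy alone. Hepatocyte markers had summed signals of 8189, 6071, 4864 and 4261 in the same order, with 13 of the 16 on the array measured, and Apob, Fgb and Fgg below it throughout. Their part in the Igfals signal was not tested.

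Among the other binding protein genes, Igfbp7 read 182 in intact, 267 in adrenalectomized, 151 in 3 h and 317 in 24 h muscle, and was 1.77-fold lower at 3 h than after adrenalectomy alone. Igfbp6 read between 1548 and 1813. Igfbp3 had 2 sets, which were 1.79-fold and 1.32-fold higher at 3 h and disagreed in direction at 24 h. Igfbp2 was within 1.5-fold in all 3 comparisons. Igfbp1 by its brighter set was below the floor in intact muscle, at 67.7, and read 107, 121 and 149.6 on the other arrays. Its other set read 22.4 in intact, 68.8 in adrenalectomized, 110.7 in 3 h and 28.2 in 24 h muscle, above the floor at 3 h alone.

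Of 9 measured adaptor genes, 2 were at least 1.5-fold lower after adrenalectomy, 2 higher at 3 h, and 2 higher and 1 lower at 24 h, beside 4.91%, 9.82% and 10% of all genes in either direction. Cbl, a ubiquitin ligase and adaptor that marks receptors for breakdown, read 271 in intact, 138 in adrenalectomized, 310 in 3 h and 292 in 24 h muscle. The adrenalectomized array alone was low, so that Cbl was 1.96-fold lower than intact there and 2.24-fold and 2.11-fold higher after cortisol. Grb7 read 268, 90.7, 328 and 116 and was at least 3.28-fold higher at 3 h, since its adrenalectomized signal was below the floor. Grb10, an adaptor that restrains insulin and IGF1 receptors, was 1.57-fold lower at 24 h, and a second set of the gene had a log2 ratio of -0.67. Grb2, which links receptors to Ras, was 1.51-fold higher at 24 h. The second IRS gene, Irs2, read 392, 378, 407 and 311 and was within 1.5-fold in all 3 comparisons.

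**Figure D4:**
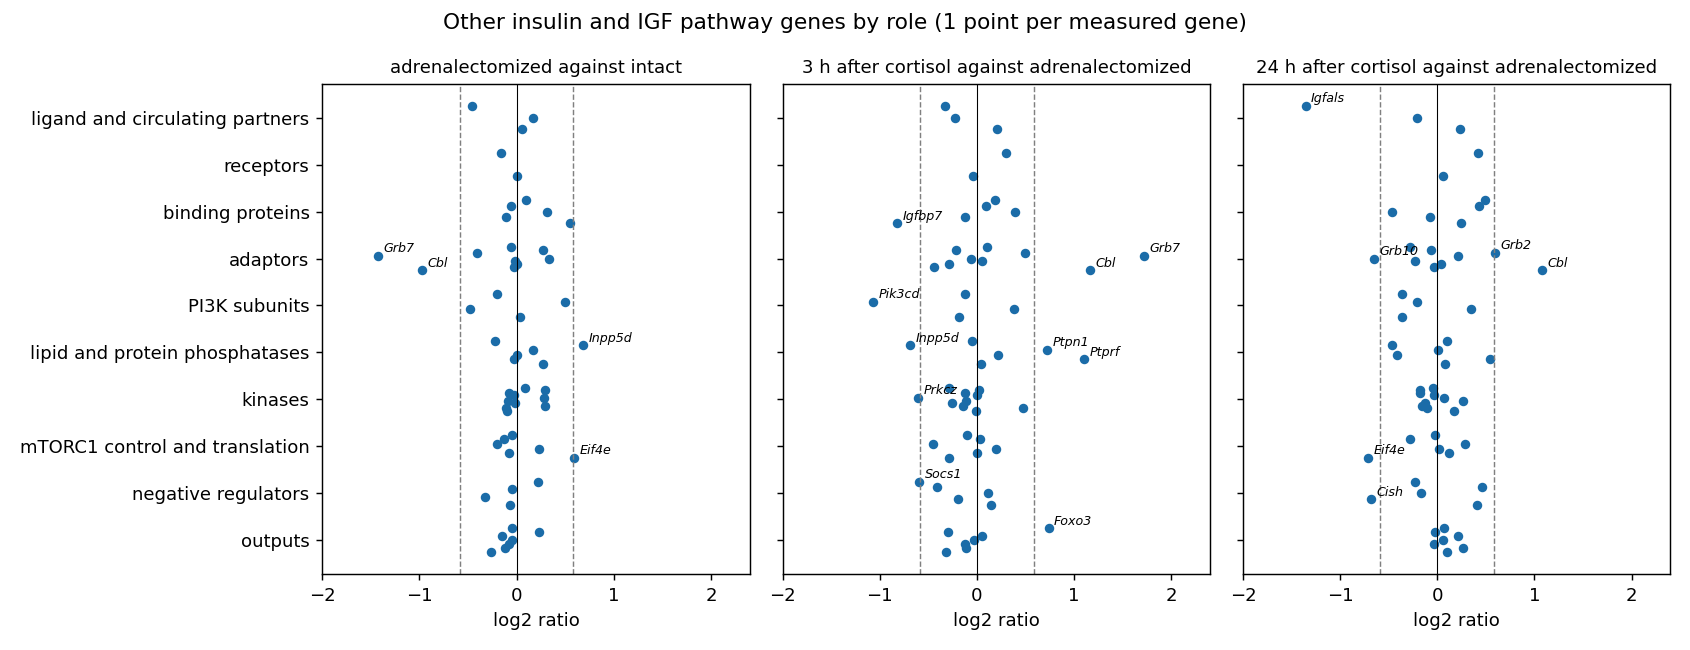
Log2 ratios of the other pathway genes by role in the 3 main comparisons, 1 point per measured gene by its brightest probe set, with dashed lines at 1.5-fold and names for genes past them. Points of each role lie on both sides of 0 in most panels, and Cbl and Grb7 lay lowest after adrenalectomy and highest at 3 h.

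Of the other lipid kinase subunit genes, Pik3cd, the catalytic subunit of white blood cells, was 2.10-fold lower at 3 h by its brighter set, and its dimmer set was at least 1.41-fold lower. Pik3ca is the main catalytic partner of p85α. Its brighter set read 540.05 in intact, 470.39 in adrenalectomized, 432 in 3 h and 366 in 24 h muscle. The dimmer Pik3ca set read 336, 361, 287 and 342, so the sets ordered the arrays differently. Pik3r2, the second p85 gene, read 337, 241, 314 and 307. Neither gene reached 1.5-fold in the main comparisons. The AKT kinase genes differed little, with Akt1 between 829 and 1027 and Akt2 between 1974 and 2348. Prkcz, an atypical protein kinase C, was 1.52-fold lower at 3 h by the 1 of its 3 sets that was above the floor.

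Of 6 measured phosphatase genes, 2 were at least 1.5-fold higher and 1 lower at 3 h, beside 9.82% of all genes in either direction. Ptpn1, which dephosphorylates the insulin receptor, read 510.5 in intact, 573 in adrenalectomized, 943 in 3 h and 575 in 24 h muscle, 1.65-fold higher at 3 h. Ptprf, a receptor phosphatase that epithelia also make, read 187, 184, 396 and 268, 2.15-fold higher at 3 h on the array with the epidermal markers above. The part of epidermal cells in the Ptprf signal was not tested. Inpp5d, the lipid phosphatase of blood cells, was at least 1.61-fold higher after adrenalectomy than in intact muscle and at least 1.61-fold lower at 3 h. Its signals were below the floor on the intact and 3 h arrays.

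Among outputs and feedback genes, Foxo3, a transcription factor that AKT keeps out of the nucleus, read 541 in intact, 524 in adrenalectomized, 874 in 3 h and 551 in 24 h muscle. The glucose transporter gene Slc2a4, the hexokinase gene Hk2 and the glycogen synthase gene Gys1 were each within 1.5-fold in all 3 comparisons. Socs1 was 1.51-fold lower at 3 h and Cish, another inhibitor of cytokine and growth hormone signalling, 1.60-fold lower at 24 h. The translation factor gene Eif4e was 1.51-fold higher after adrenalectomy and 1.63-fold lower at 24 h than after adrenalectomy alone. Its signals were near the floor, at 121 in intact, 183 in adrenalectomized, 150 in 3 h and 112 in 24 h muscle. The other Eif4e set was below the floor throughout. The kinase gene Mtor, its partner gene Mlst8, the inhibitor genes Tsc1 and Tsc2 and the substrate genes Eif4ebp1 and Eif4ebp2 were within 1.5-fold in the main comparisons.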

How the data were processed

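Total RNA of pooled gastrocnemius was hybridized to 1 MG-U74Av2 array per group, and scanned images were read out with MAS 5.0, per the labels. The authors' deposited intensities were linear and already scaled, with a trimmed mean of 499 on each array over all but control probe sets, 2% left out at each end. How the scaling was set is not given in the sources used here. All 4 arrays shared 1 chip lot, were hybridized on 1 day and scanned on 1 day, in 4 fluidics modules.

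Of 12488 probe sets, 66 controls were left out, and the 20 missing values of the 3 h array were all controls. Arrays were rescaled to a trimmed mean of 500, signals under 100 were set to that floor, and log2 ratios were taken with Python 3.11.15, numpy 2.4.6 and pandas 2.3.3. Of the 12422 remaining sets, 10833 had 1 symbol, 396 several and 1193 none, and 10817 of the 10833 matched the GRCm38.p6 gene table. For each of the 8251 genes the brightest probe set by mean signal was used, and it was compared where 1 of the 2 arrays reached the floor. Folds against an array under the floor are lower bounds. Genes were counted at 1.5-fold and 2-fold in size, with no test because each group had 1 array. Median signals were between 189 and 199.6, and 63.0% to 64.4% of probe sets reached the floor.

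The members, gene lists, thresholds and alternatives were chosen with earlier results of these data known. Members are named with every probe set. Other pathway genes were named when at least 1.5-fold different with both arrays at the floor or above, or when their role group needed them. Grb7 and Inpp5d, under the floor on 1 array of a comparison, were named after their values were seen. The steps were tested on simulated data.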

Additional observations from a re-analysis of the deposited data

Results flagged for a closer look

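At 3 h and at 24 h some genes lay on opposite sides of the adrenalectomized array, with 1 array each, so the difference between the times was not tested. Irs1 had a log2 ratio of -0.61 at 3 h and 0.07 at 24 h, a difference of 0.68. Prkcz had nearly the same values, -0.61 and 0.07, a difference of 0.67. Igfbp7 had -0.82 and 0.25, a difference of 1.07, and Igf2 by 98623_g_at -0.15 and 0.05, a difference of 0.20. Each of these 24 h values was within the error SD of 0.32, so the side of 0 at 24 h is not settled. Igf2 was also within the SD of 0.28 at 3 h.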

How the results depend on the processing

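The 7 measured probe sets gave 147 log2 ratios under other floors, a pseudocount or other scalings. Of these 143 moved by less than the error SD of their comparison, 4 moved by more and 0 past 1.5-fold turned over. Part of the 143 could not move, so this count does not measure stability. The 7 sets read at or above the main floor on every array, so a lower floor left their ratios unchanged. Sets above 200 on all arrays were likewise unchanged by a floor of 200. Ratios from the deposited values could barely differ, since the main scaling changed each array only slightly. All 4 ratios that moved by more came with a floor of 200. There Irs1 was 0 after adrenalectomy and 0 at 3 h, and at 24 h the log2 ratio was -0.55 for the dimmer Igf1 set and -0.47 for Pik3r1. The count of member genes past 1.5-fold at 3 h was 0 with that floor, with a pseudocount of 32 and with median scaling, and 2 with ribosomal scaling. At 24 h it was 0 with a floor of 200, 2 with probe sets averaged (both lower) and 2 of 4 genes with only sets without a suffix (1 higher and 1 lower). All alternatives for this count were added after seeing the data. With averaging the 24 h log2 ratio was -0.60 for Igf1 and 0.31 for Igfbp4.

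Counts over all genes moved with the floor. At 2-fold, 44, 187 and 145 genes differed in the 3 main comparisons, 193, 371 and 354 with a floor of 50, and 11, 102 and 43 with one of 200. With the pseudocount 114 differed after adrenalectomy and 240 at 24 h. At 1.5-fold, 300, 606 and 623 became 700, 1024 and 1077 with the floor of 50 and 112, 330 and 292 with that of 200. Pathway counts of 4 after adrenalectomy became 7 and 0 with those floors, and the 24 h count of 6 became 2 with the floor of 200 and 3 with the pseudocount. No paired analysis was possible because each group had 1 array, and no replicate could be left out. What limits these values is 1 pool per group and signals near the floor for Irs1, Pik3r1 and the dimmer Igf1 set.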

Other observations

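Between the 3 h and 24 h arrays, 5 of 57 measured pathway list genes were at least 1.5-fold higher at 24 h and 6 lower. The higher ones were Igfbp7 (2.10-fold), Socs2, an inhibitor of growth hormone signalling (1.83-fold), Pik3cd (1.82-fold), the mTOR partner gene Mlst8 (1.66-fold) and Prkcz (1.59-fold). The lower ones were Grb7 (2.84-fold), Igfals (2.04-fold), Igfbp3 (1.82-fold), Ptpn1 (1.64-fold), Foxo3 (1.59-fold) and Ptpn2 (1.55-fold). The list share was 19.3%, beside 11.6% of all genes. Against intact muscle, the 24 h array had Igfals 3.51-fold, Grb7 2.32-fold and Cish 1.68-fold lower and Igfbp7 1.74-fold higher, 7.02% of the list beside 9.99% of all genes. With 1 array per group these are values and not tested differences.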
